A study of Mus musculus with 2 samples.

Results

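The Frizzled receptor genes Fzd1 to Fzd10 encode the cell-surface receptors for Wnt ligands. All 10 were taken by symbol from 21911 protein-coding genes of the mouse annotation (GENCODE on GRCm38, the build that mm10 names), and the peaks of histone H3 trimethylated at lysine 27 (H3K27me3) were read over each gene body and 50 kb on either side, called its window below. The data are chromatin immunoprecipitation and sequencing (ChIP-seq) peak lists from MEL, an immortalized mouse erythroleukaemia line that the labels call an analog of the human leukaemia line K562. There was 1 group, made up of 2 biological replicates, with an antibody against H3K27me3, no treatment or genetic change named and no other condition. The labels give the age as unknown and the sex as not collected. Nothing in the labels says that the replicates were grown separately, so the spread between them may be technical, and with 1 group no test between conditions was possible. The lists hold no expression values, so the MEL identity was not checked against marker genes.

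Wnt proteins bind the extracellular cysteine-rich domain of a Frizzled receptor, and the receptor passes the signal to Dishevelled and then either to β-catenin or to the planar cell polarity pathway, which orients cells within a sheet. H3K27me3 is laid down by Polycomb repressive complex 2 and is typically found over silent developmental genes, either as a block around a CpG-rich start or as a broad domain. By sequence the receptors fall into the related groups Fzd1, Fzd2 and Fzd7, then Fzd5 and Fzd8, then Fzd4, Fzd9 and Fzd10, and last Fzd3 and Fzd6, and the results are ordered by these groups, beginning with Fzd3 and Fzd6.

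Peaks came in 4 lists on mm10. The lists of replicate 1 and replicate 2 hold 70901 and 106995 peaks and cover 0.590% and 0.877% of chromosomes 1 to 19, X and Y. Peak calling for these lists used a single control alignment, which the replicates share. The pooled list holds 69721 peaks over 0.699%. The replicated list holds 38298 peaks over 0.477%, each with the coordinates of a pooled peak, and is the list meant where none is named. It was derived from the other 3 lists, so its values are not separate support for theirs. All lists admit weak peaks, since the authors' −log10 q reached 2 in 10.9% of replicated peaks. They carry no read counts, so the depth behind a value is unknown.

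Fzd3, a receptor best known for guiding axons through planar cell polarity signalling, lies at chr14:65192449-65262463 on the minus strand and has 7 exons over 70015 bp. Its strongest replicated peak, at chr14:65239297-65240009, has a signal value of 5.84 (the authors' score for a peak, whose definition is not stated) and a −log10 q of 3.47. That peak covers the whole of exon 3, which encodes a piece of the Wnt-binding cysteine-rich domain. The strongest peak of replicate 2, with a signal value of 6.97, covers exon 3 too. In replicate 1 the strongest peak, at chr14:65235445-65236068 with 7.21, overlaps exon 4, and the peak over exon 3 is weaker. The place of the maximum thus differed between the replicates. Exon 3 is printed below as the reference sequence under the strongest replicated peak, beside exon 3 of Fzd6, its nearest relative. The Fzd6 exon has the same length of 197 bp and lies under no peak. Both come from the RefSeq copy of GRCm38.p6, at chr14:65239667-65239965 (minus strand) and chr15:39025615-39025913 (plus strand), with the exon in capitals and 51 bases of intron on each side in lower case. The Fzd6 exon was chosen after the values were seen.
Fzd3 exon 3: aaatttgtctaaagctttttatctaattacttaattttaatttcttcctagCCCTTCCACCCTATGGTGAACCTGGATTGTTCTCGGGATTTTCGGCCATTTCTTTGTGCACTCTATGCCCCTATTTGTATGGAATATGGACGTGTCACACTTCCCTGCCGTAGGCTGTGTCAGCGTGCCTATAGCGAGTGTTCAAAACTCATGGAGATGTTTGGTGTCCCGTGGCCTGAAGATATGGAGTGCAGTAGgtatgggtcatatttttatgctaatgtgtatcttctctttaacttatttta
Fzd6 exon 3: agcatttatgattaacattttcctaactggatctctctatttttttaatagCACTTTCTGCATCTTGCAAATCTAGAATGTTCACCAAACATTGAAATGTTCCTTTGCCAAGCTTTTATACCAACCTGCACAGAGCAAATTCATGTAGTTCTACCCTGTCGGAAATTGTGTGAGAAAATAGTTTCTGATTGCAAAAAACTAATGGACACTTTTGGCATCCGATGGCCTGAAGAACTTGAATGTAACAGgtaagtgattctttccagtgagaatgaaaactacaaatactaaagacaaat
The exons match, aligned without gaps, at 108 of 197 bases (54.8%). All 299 printed Fzd3 bases lie inside the peak. The Fzd3 exon holds 7 CG dinucleotides and the Fzd6 exon 2. Exons 4 and 5 are also of equal length in both genes. Exon 4 (1018 bp, 63.0% identical) was 47.1% covered in Fzd3, exon 5 (149 bp, 63.8% identical) was not covered, and neither was covered in Fzd6.

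Among the 10 receptors, H3K27me3 peaks were concentrated at 3 loci. At least 1 replicated peak lay in the window of 7 receptors, against 45.4% of all protein-coding genes, and Fzd1, Fzd8 and Fzd10 had none in any of the 4 lists. The windows of Fzd2, Fzd3 and Fzd7 held 91.1% of the 61450 covered bases and each was covered over more than 5% of its length, a level that 5.15% of all genes reached. The same 7 and the same 3 receptors met these limits in the other lists, against 54.5% and 8.25% of all genes in the pooled list, 58.1% and 5.87% in replicate 1, and 65.3% and 9.61% in replicate 2. Within gene bodies, Fzd3 alone held 97.7% of the 24597 covered bases, and 3 receptors (Fzd3, Fzd4 and Fzd6) had a peak in the body, against 11.5% of all genes. Fzd3 is also the longest of the 10 genes, at 70015 bp, while those without an intron are at most 5974 bp long. A longer body can hold more covered bases, and the part of length in that share was not tested. The body count was 4, 3 and 4 in the pooled list, replicate 1 and replicate 2, where Fzd2 was the addition, against 15% (pooled), 16.4% (replicate 1) and 20.4% (replicate 2) of all genes. The start of no receptor lay in a peak in any list, but the lists cover only 0.477% to 0.877% of the chromosomes. The share of all genes with their start in a peak was not computed. This count therefore cannot be read as particular to these receptors. The family was selected on the covered shares of these same lists, with Fzd3 picked out as the member to set against the rest, so the counts and shares below describe it and were not tested.

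**Figure D1:**
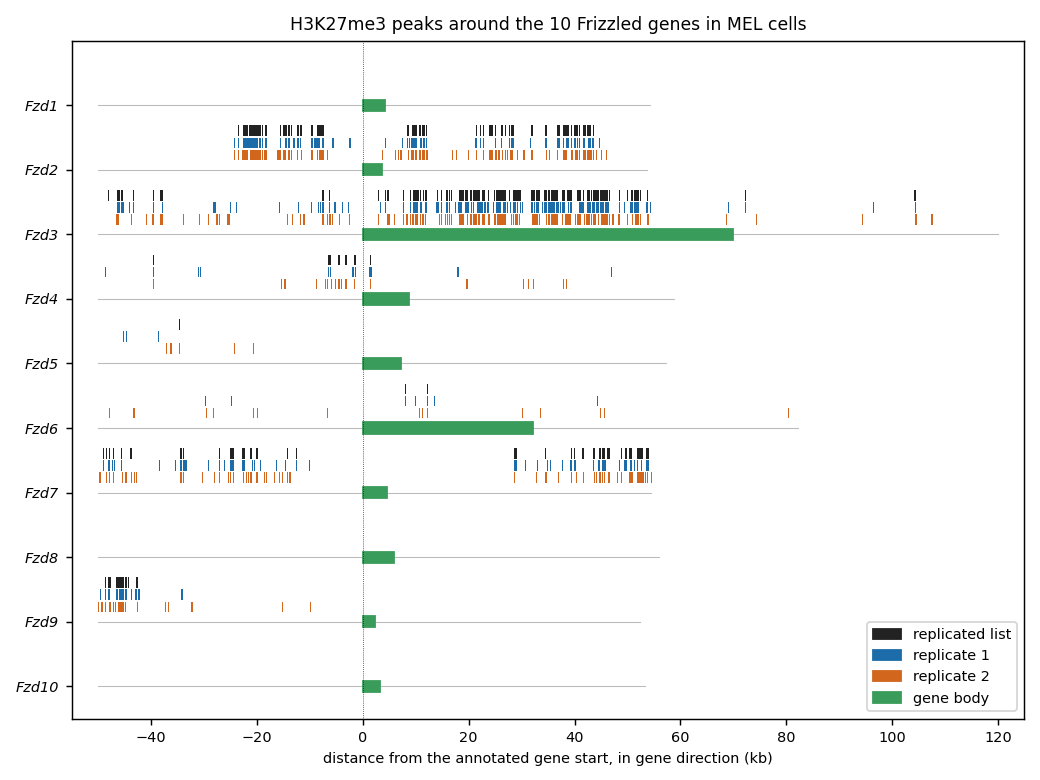
Positions of H3K27me3 peaks (vertical marks above each line) around the 10 Frizzled genes, by distance from the gene start in kb, in the replicated list and in each replicate's own list; green boxes are gene bodies and grey lines the windows. Peaks are spread along much of the body of Fzd3 (34.3% of its bases in the replicated list), stand on both sides of Fzd2 and Fzd7, and are missing around Fzd1, Fzd8 and Fzd10.

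The covered share of the window set the receptors in order. For Fzd2 it was 17.8% among replicated peaks, 21.1% among pooled peaks, 16.7% in replicate 1 and 19.9% in replicate 2. For Fzd3 the same lists gave 16.1%, 19.7%, 16.8% and 17.5%, so the replicate values of Fzd3 lay within those of Fzd2 and these 2 loci did not differ beyond the replicate spread. Fzd7 followed with 9.67%, 12.7%, 11.6% and 11.0%, below both in every list. Fzd9 had 2.87%, 3.64%, 3.65% and 3.70%. Fzd4 had 1.78%, 2.40%, 2.47% and 4.41%, and its replicate range took in that of Fzd9. Fzd6 had 0.315%, 0.899%, 1.02% and 2.41%, and Fzd5 0.155%, 0.776%, 0.676% and 0.880%. Over all genes the median share was 0% for replicated peaks, 0.157% in replicate 1 and 0.367% in replicate 2. Only 61 genes of the 21911 had a replicated share as high as Fzd2, 90 as high as Fzd3 and 355 as high as Fzd7 (each count includes the gene itself), against 3429 for Fzd4 and 9218 for Fzd5. Summed over the 9 receptors other than Fzd3, the share was 3.50% among replicated peaks, 3.90% in replicate 1 and 4.62% in replicate 2, less than in Fzd3 in each.

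**Figure D2:**
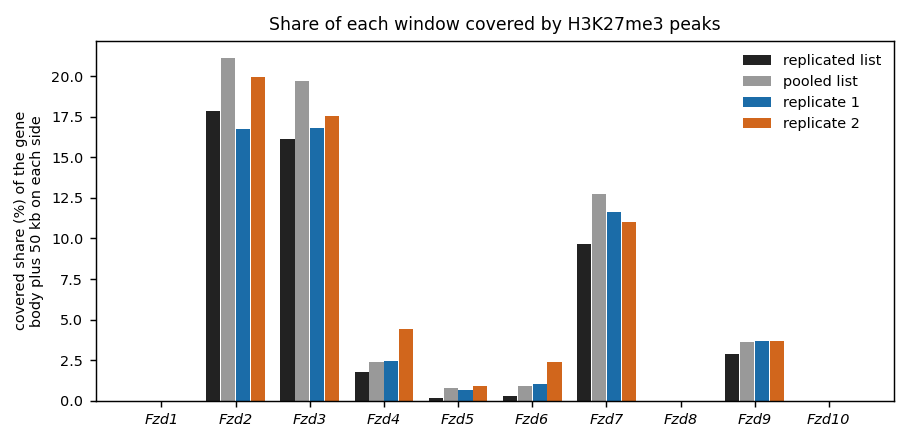
Share of each window (gene body plus 50 kb on each side, in percent) covered by H3K27me3 peaks, with 1 bar for each of the 4 lists (replicated, pooled, replicate 1, replicate 2). Fzd2, Fzd3 and Fzd7 stand between 9.67% and 21.1%, every other receptor at 4.41% or less.

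Fzd3 differed from the other receptors in how much of its gene body was covered. Its gene body was covered over 34.3% in the replicated list, 38.0% in the pooled list, 33.1% in replicate 1 and 32.6% in replicate 2, and the replicates differed by less than 1 percentage point. The 50 kb flanks of Fzd3 were covered over 3.36%, 6.94%, 5.38% and 6.96%, so the signal was on the gene. Summed over the other 9 bodies the share was 0.786%, 1.52%, 1.72% and 1.59%. Peaks inside the gene were not particular to Fzd3, since the 2 replicated peaks of Fzd6 also lay in its body, over 1.29% of it. Of all protein-coding genes, Fzd3 included, 47 had a body covered as much as that of Fzd3 in the replicated list, against 41 in replicate 1 and 75 in replicate 2. Among the 3616 genes at least as long, the counts were 3, 3 and 5.

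Joined across gaps of up to 3 kb, 56 replicated peaks formed a single stretch of 51122 bp at chr14:65208525-65259646, all of it inside Fzd3 and taking in 73.0% of the gene. Peaks covered 47.0% of that stretch, and the replicates' own peaks covered 44.5% and 43.9% of it. Its border towards the start lay 2817 bp into the gene in the replicated and the pooled list, 7610 bp in replicate 1 and 2858 bp in replicate 2. In replicate 1 a gap split off a stretch of 1602 bp, which began 2777 bp into the gene, from a main stretch of 46779 bp, while replicate 2 gave 51253 bp in all. The replicated peak at the border, chr14:65259426-65259646, overlapped a peak in both replicate lists and was weak, with a −log10 q of 0.114. At the other end the stretch stopped 16076 bp before the end of the gene for replicated peaks, 15626 bp in replicate 1 and 15904 bp in replicate 2. The remainder without replicated peaks is taken up largely by exon 7, which is 10484 bp long and holds most of the 3′ untranslated region. The processed pseudogene Gm9086, named after its position was seen, ends 793 bp from this far border and held no peak.

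Within Fzd3 the coverage rose and fell along the gene. In steps of 10 kb from the start, the replicated list covered 15.9%, 38.7%, 64.0%, 51.2%, 48.5%, 22.1% and 0%. The step from 20 to 30 kb was the highest in the replicates too, at 57.4% in replicate 1 and 55.4% in replicate 2, and replicate 1 was nearly as high from 30 to 40 kb (56.8%). Introns were covered over 40.1%. Exons 1 to 6, which make up 2250 bp, were covered over 46.4% by replicated peaks and over 44.1% and 45.4% in replicates 1 and 2, while exon 7 beyond the stretch had no replicated peak, so all exons together came to 8.19%. Of the 56 body peaks 50 lay in introns and 6 touched exons. Intron 5 was covered over 76.9%, intron 3 over 56.5%, intron 4 (22690 bp, the longest) over 52.5% and intron 2 over 46.5%, whereas intron 1, next to the start, was covered over 10.4% and intron 6 over 4.45%. Exon 3 was fully covered in all 4 lists, while exons 1 and 5 had no covered base in any. Exon 6 was covered over 53.4% by replicated peaks and over 44.9% in replicate 2, but 0% in replicate 1. Exon 7 had 195 and 201 covered bases in the replicates.

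**Figure D3:**
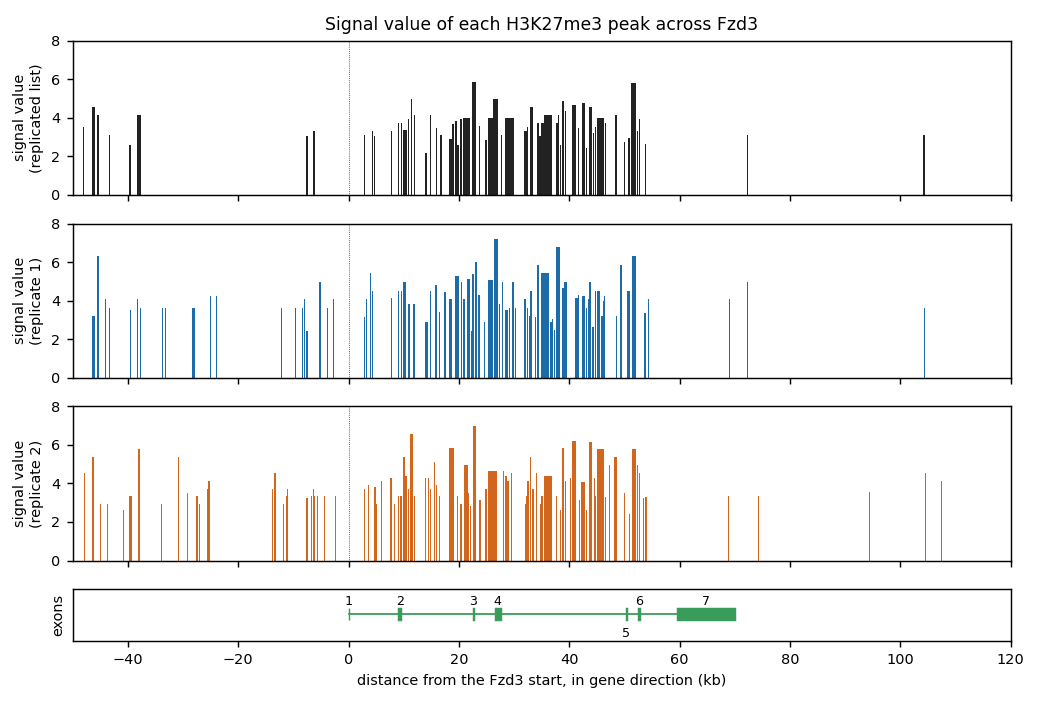
Each H3K27me3 peak across Fzd3, drawn to its width at its distance from the gene start (kb) and to the height of its signal value (authors' score, no unit), in the replicated list and each replicate; numbered green boxes are exons. The peaks crowd between the first intron and exon 6 in both replicates, and the highest replicated peak, at 5.84, stands over exon 3.

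The replicated signal values of the Fzd3 window ran from 2.20 to 5.84 with a median of 3.62, beside 3.54 over the whole list, and 10 of the 66 peaks (15.2%) had a −log10 q of 2 or more, beside 10.9% over the list. In replicate 1 the share was 38 of 95 peaks (40%), beside 30.8% over its list, and in replicate 2 it was 24 of 102 (23.5%), beside 12.0%. The next highest peak, at chr14:65210358-65211291 in intron 5, had a signal value of 5.81 and a −log10 q of 3.15. Of the 56 body peaks 42 overlapped a peak in both replicate lists, 5 only in replicate 1 and 9 only in replicate 2. That share of 75% stood beside 72.4% over all replicated peaks. By bases, replicates 1 and 2 shared 32.6% of the union of their peaks in the Fzd3 window, beside 15.8% genome-wide. These 2 shares do not measure agreement on equal terms, since overlap can be higher where peaks are dense. The window, picked for its coverage, was covered over 16.8% and 17.5% in the replicates, beside 0.590% and 0.877% genome-wide. Replicate 2 covered 1.04 times as many bases as replicate 1 there, beside 1.49 times genome-wide.

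Around the Fzd3 start itself no list had a peak. The stretch without peaks across the start was 8947 bp in the replicated list, 5184 bp in the pooled list, 5386 bp in replicate 1 and 5224 bp in replicate 2. It began 6131 bp upstream in the replicated list and 2610 and 2367 bp upstream in the replicates. Fbxo16, an F-box gene read in the opposite direction, starts 4155 bp from the Fzd3 start, and all 8 replicated upstream peaks of the window lay in its body, over 2778 bases. Downstream of the gene there were 2 replicated peaks. The peaks of the window had a GC content of 38.6% and 6.43 CG per kb, the rest of the window 43.9% and 11.6, and the stretch across the start 47.1% and 27.6. The part of base composition in the placing of peaks was not tested.

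Fzd6, the relative of Fzd3 that directs hair follicle orientation, showed no such domain. Its gene at chr15:39006034-39038188 (plus strand) also has 7 exons, over 32155 bp. It held 2 replicated peaks, both in intron 2 and both found in each replicate: chr15:39014024-39014235 with a signal value of 3.33 and chr15:39018159-39018362 with 3.75. Covered bases of the body came to 416 (replicated), 888 (pooled), 778 (replicate 1) and 914 (replicate 2), or 1.29%, 2.76%, 2.42% and 2.84%. Thus the body of Fzd3 was covered over a larger share than that of Fzd6 in each of the 4 lists. Chromosome 15, which holds Fzd6, was covered over 0.841% and chromosome 14, which holds Fzd3, over 0.386%.

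Fzd2, Fzd7 and Fzd1 are closely related receptors with no intron, which can signal through β-catenin. Fzd2 (chr11:102604396-102608058, plus strand) had 44 replicated, 59 pooled, 60 replicate 1 and 70 replicate 2 peaks in its window, yet its body held no base of a replicated or replicate 1 peak and 54 and 66 bases in the pooled list and replicate 2, at its very end. Upstream, 16 replicated peaks joined into 16309 bp at chr11:102580799-102597107, which ended 7289 bp before the start. Downstream there were stretches of 3737 bp, 7158 bp and 11889 bp, the first beginning 8398 bp from the start. The stretch without peaks across the gene was 15686 bp in the replicated list, 6606 bp in the pooled list, 6428 bp in replicate 1 and 8786 bp in replicate 2. Its highest replicated signal value was 5.38, downstream, and its highest −log10 q, 3.89, belonged to a peak of the upstream stretch. The replicates shared 37.7% of the union of their bases, and 36 of the 44 replicated peaks were in both. Of the lincRNA Gm11636, downstream and named after its values were seen, 71.7% was covered, while neither protein-coding neighbour in the window (Gpatch8 and Gm11627) held a peak there. Chromosome 11 was covered over 1.86%, beside 0.477% for all chromosomes, and the part of this level in the Fzd2 values was not tested.

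Fzd7 (chr1:59482424-59486955, plus strand) had 32 replicated, 51 pooled, 56 replicate 1 and 56 replicate 2 peaks in the window and none in its body in any list. It stood in a wide stretch without peaks, of 41013 bp in the replicated and pooled lists, 36304 bp in replicate 1 and 36651 bp in replicate 2. The downstream edge of that stretch, 28633 bp from the start, was the same in the replicated list and replicate 2 and 10 bp further in replicate 1 (28643 bp). The longest replicated stretch of peaks began 39236 bp downstream, was 16990 bp long and ran past the edge of the window. In the window 14 replicated peaks lay in the protein-coding gene Gm973. The replicates shared 14.8% of their bases, beside 15.8% genome-wide, where peaks are less dense, and 20 of the 32 replicated peaks were in both. Fzd1 (chr5:4753839-4758035, minus strand) had its nearest replicated peak 168194 bp upstream and the nearest of replicate 1 603923 bp downstream, and its neighbour Cdk14 held none within the window.

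**Figure D4:**
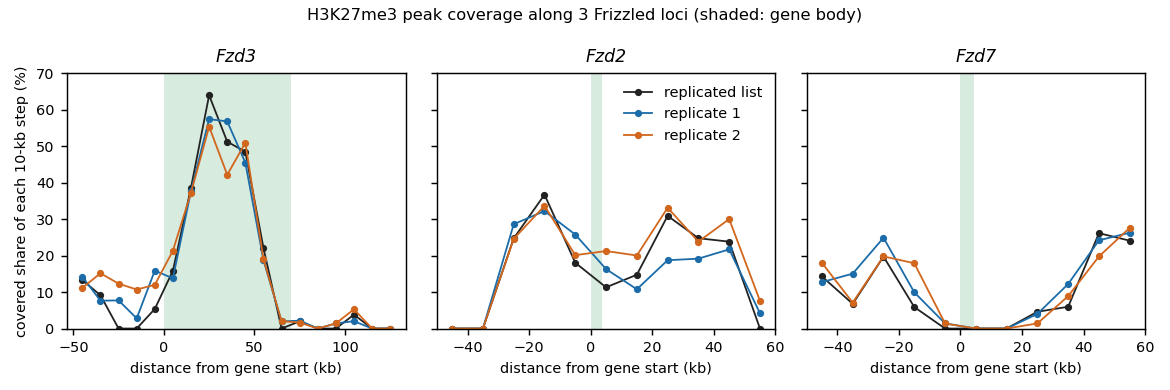
Share of each 10-kb step (percent) covered by peaks against distance from the gene start (kb) at Fzd3, Fzd2 and Fzd7, in the replicated list and each replicate, with the gene body shaded. Coverage reaches 64.0% inside Fzd3, is 11.3% (replicated), 16.3% (replicate 1) and 21.3% (replicate 2) in the step that holds Fzd2, and is 0% from 0 to 20 kb at Fzd7.

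Fzd4, which with the ligand norrin drives the growth of retinal vessels, was the other receptor with peaks close to its start. The gene lies at chr7:89404355-89413134 (plus strand) in 2 exons. Its window held 6 replicated, 10 pooled, 13 replicate 1 and 23 replicate 2 peaks, of which the replicated ones had signal values of 2.91 to 3.75 and a −log10 q of at most 0.980. Peaks within 5 kb of the start covered 1196 bases for replicated peaks, 910 in replicate 1 and 1441 in replicate 2. Of the 10 receptors, 2 (Fzd3 and Fzd4) had a replicated peak within that distance, against 10.4% of all genes. With Fzd2 the number was 3 in the pooled list (14.2% of all genes), 3 in replicate 1 (15.7%) and 3 in replicate 2 (19.8%). The start of Fzd4 lay in a gap of 2740 bp for replicated peaks, 2486 bp in replicate 1 and 2714 bp in replicate 2, whose upstream edge was 1389 bp, 1389 bp and 1394 bp from the start. Since the gap is shorter than 3 kb, the peaks on its sides joined into a stretch of 8168 bp from position −6666 to position 1501 relative to the start. The only replicated peak in the body was chr7:89405707-89405856 in the intron, and it was found in both replicates. All 5 upstream peaks lay in Tmem135, a transmembrane protein gene that starts 133 bp from Fzd4 on the other strand. Replicate 2 covered 1.78 times as many bases of this window as replicate 1, beside 1.49 times genome-wide, and they shared 6.08%.

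The promoters of Fzd4 and Fzd7 are printed as the sequences that the gaps in the peaks leave free: a narrow gap at Fzd4 and a wide one at Fzd7. Each is the 250 bases before the RefSeq start on GRCm38.p6, at chr7:89404116-89404365 (plus strand) and chr1:59481897-59482146 (plus strand), with every CG in capitals. They were chosen after the values were seen.
Fzd4 promoter: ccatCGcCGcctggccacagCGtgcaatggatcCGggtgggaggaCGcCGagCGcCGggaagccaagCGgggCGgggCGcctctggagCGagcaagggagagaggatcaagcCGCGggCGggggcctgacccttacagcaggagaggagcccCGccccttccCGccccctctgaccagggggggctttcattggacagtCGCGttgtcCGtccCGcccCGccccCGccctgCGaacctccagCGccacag
Fzd7 promoter: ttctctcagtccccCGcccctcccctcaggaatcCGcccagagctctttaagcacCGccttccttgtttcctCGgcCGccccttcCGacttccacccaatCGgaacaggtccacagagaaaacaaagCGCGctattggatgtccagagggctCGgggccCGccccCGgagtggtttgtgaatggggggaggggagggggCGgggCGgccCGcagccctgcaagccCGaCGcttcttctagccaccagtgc
The Fzd4 promoter holds 25 CG and the Fzd7 promoter 17. CG reads the same on both strands. The RefSeq promoter table matched 6 of the 10 receptors, and Fzd2, Fzd3, Fzd6 and Fzd8 are not in it. Over its 32851 promoters of the same length the median was 6 CG, 92.1% held at least 1, 10.7% held as many as Fzd4 and 23.5% as many as Fzd7. The other 4 matched receptors held 12 (Fzd1), 32 (Fzd5), 37 (Fzd10) and 42 (Fzd9), and no base of the 6 promoters lay in a peak of any list. The share of all promoters free of peaks was not computed, and the lists cover only 0.477% to 0.877% of the chromosomes. The stretch without peaks at Fzd4 (2740 bp) had 59.1 CG per kb and that at Fzd7 (41013 bp) had 16.5. These lengths are unlike, and within 5 kb on each side of the start Fzd4 had 24.7 and Fzd7 33.9. The replicated peaks of these windows had 5.16 and 8.91, and the rest of the windows 9.48 and 13.6.

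Fzd9 and Fzd10, the remaining receptors of the Fzd4 group, differed from each other. The window of Fzd9 (chr5:135248938-135251230, minus strand), a receptor with a role in bone formation, had 7 replicated, 12 pooled, 15 replicate 1 and 15 replicate 2 peaks. All 7 replicated peaks lay more than 42 kb upstream, in Fkbp6, a gene needed for male meiosis. They belong to a stretch of 17189 bp that begins 42565 bp upstream of Fzd9 and runs past the window, and the highest reached a signal value of 4.57 with a −log10 q of 2.04. The body of Fzd9 had no peak in any list. Fzd10 (chr5:128600844-128604093, plus strand) was the receptor farthest from a replicated peak, the nearest lying 1024279 bp downstream, and the nearest peaks of replicates 1 and 2 lay 437877 bp and 444756 bp downstream. In each replicate's own list Fzd8 was farther from a peak than Fzd10.

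Fzd5 and Fzd8, both receptors of early development and of the eye, had little or none. Fzd5 (chr1:64730558-64737751, minus strand) had 1 replicated, 5 pooled, 4 replicate 1 and 5 replicate 2 peaks in its window. Its replicated peak, chr1:64772251-64772416, lay 34500 bp upstream with a −log10 q of 0.533 and overlapped a peak of replicate 2 only. The replicates shared no base in this window. Fzd8 (chr18:9212163-9218136, plus strand) had its nearest replicated peak 668235 bp downstream, and the replicates had theirs 626120 bp and 599820 bp downstream. Of its window 57.8% is soft-masked repeat sequence, beside 28.8% and 25.4% in the other windows without peaks (Fzd1 and Fzd10) and 34.3% and 38.9% at Fzd3 and Fzd2. The part of repeats in these values was not tested.

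The 6 receptors without an intron are at most 5974 bp long, and none had a replicated or replicate 1 peak in its body, while Fzd2 had 1 in the pooled list and replicate 2. Of all 5022 protein-coding genes no longer than this, 3.39% had a replicated body peak, and of the 3616 genes at least as long as Fzd3, 21.5% did. Fzd5, at 7194 bp, had none in any list. The part of gene length in these counts was not tested.

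The other genes of the Wnt pathway, 88 in all by role, had at least 1 replicated peak in the window in 57 cases (64.8%), beside 45.4% of all protein-coding genes. The count was 65 in replicate 1, beside 58.1% of all genes, and 70 in replicate 2, beside 65.3%. With replicated peaks 6 of the 88 (6.82%) reached 5% of the window, near the 5.15% of all genes. Of the genes with a peak, 4 pairs have overlapping windows and so are not separate values: Wnt3a and Wnt9a (83825 bp shared), Wnt6 and Wnt10a (93807 bp), Wnt1 and Wnt10b (88294 bp), and Kremen1 and Znrf3 (85235 bp), named here for their overlap. Of the ligands 16 of 19 had a replicated peak, with a median share of 1.16%. Wnt3a had 13.9%, Wnt9a 13.3% and Wnt8b 8.09%. Wnt3a and Wnt9a lie, like Fzd2, on chromosome 11, which was covered over 1.86%, beside 0.477% for all chromosomes. The part of this level in their values was not tested. Wnt7a, named after its value was seen, had 7.72%, and Wnt3, Wnt4 and Wnt5a had none. Among co-receptors and other Wnt receptors 3 of 7 had a peak (4 in replicate 1 and 5 in replicate 2), with 1.46% at the kinase-like receptor Ptk7, 1.04% at the β-catenin co-receptor Lrp6 and 0.187% at Musk of the neuromuscular junction. Relatives of Frizzled outside the family, which carry a cysteine-rich domain of the same kind, had a peak in 6 of 8, led by 1.87% at Mfrp, 1.24% at the Hedgehog transducer Smo and 1.16% at the protease gene Corin.

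Among the proteins that set how much Frizzled stays at the surface, 7 of 9 genes had a peak (9 in each replicate), led by the R-spondin receptor gene Lgr6 (1.95%), the R-spondin gene Rspo1 (1.87%) and the ubiquitin ligase gene Znrf3 (0.655%). Of the secreted antagonists and their receptors 4 of 10 did (6 in replicate 1 and 5 in replicate 2), with 2.34% at Sost, 2.07% at Kremen2 and 0.986% at Kremen1. Ligand processing had 1 of 3, Notum at 0.681%. Cytoplasmic transducers had 10 of 14, led by the casein kinase genes Csnk1e (2.29%) and Csnk1d (2.02%) and the β-catenin ubiquitin ligase subunit Btrc (1.97%). Nuclear factors had 6 of 8 and a median share of 3.10%, led by the DNA-binding factor Tcf7l2 (5.45%) and the β-catenin adaptors Bcl9l (4.88%) and Bcl9 (4.18%). Planar cell polarity genes had 4 of 10 (4 in replicate 1 and 8 in replicate 2), led by Prickle3 (7.46%) and Celsr2 (3.01%), then Vangl2. Of all genes, 45.4% (replicated), 58.1% (replicate 1) and 65.3% (replicate 2) had a peak. With replicated peaks, ligand processing (33.3%), antagonists and planar cell polarity (40% each) and co-receptors (42.9%) lay below 45.4%. The other roles lay above it, and none of these differences was tested. Fzd2 and Fzd3 had a larger share of the window covered by replicated peaks than any of the 88 genes.

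**Figure D5:**
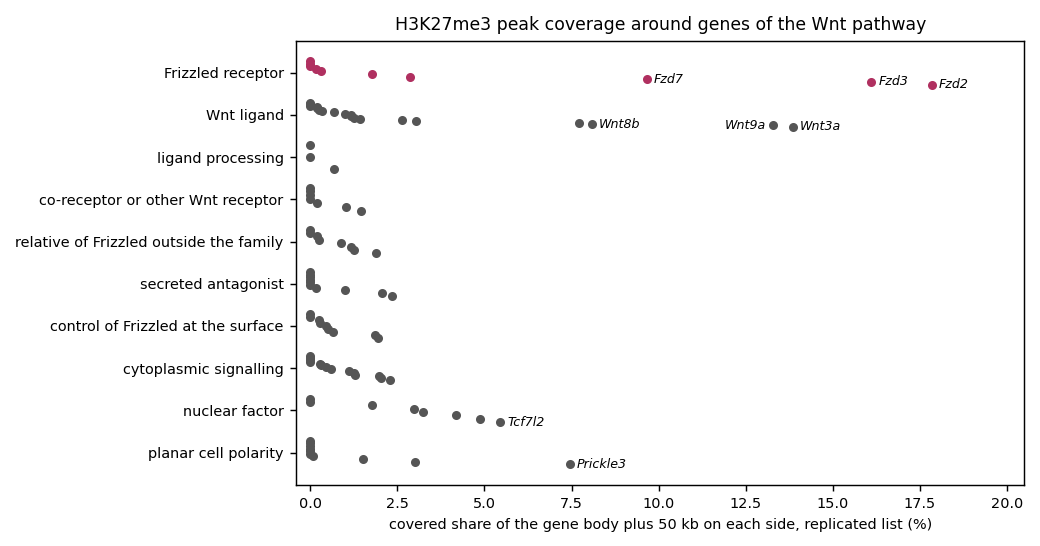
Share of the window (percent, replicated list) covered by peaks for each Frizzled gene (red) and each of 88 other Wnt pathway genes (grey), 1 point per gene, by role, with names at genes of 5% or more among the top 3 of a role. Fzd3 at 16.1% and Fzd2 at 17.8% lie to the right of every other gene, the nearest being Wnt3a at 13.9%. Fzd2, Wnt3a and Wnt9a are on chromosome 11, which has a higher covered share than all chromosomes together.

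The genes most like Fzd3, by the summed absolute difference of the window share over the 4 lists and leaving out genes whose windows touch its own, were Scn4b (a difference of 1.92 percentage points), Abcf2 (2.16), Hoxc10 (2.30), Nup62cl (2.53) and Gjc1 (2.64). Their bodies differed: replicated peaks covered 40.0% of the body of Gjc1, 20.3% of Nup62cl, 18.6% of Scn4b and none of Abcf2 or Hoxc10, beside 34.3% of Fzd3.

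The extent at Fzd3 depended on weak peaks and on the joining. With a −log10 q of at least 2 the covered share of its body fell to 8.35% and the longest stretch to 5571 bp, and with gaps joined up to 1 kb in place of 3 kb the longest stretch was 11822 bp.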

How the data were processed

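H3K27me3 ChIP-seq peak lists of MEL cells (1 group, 2 biological replicates) were used as deposited on mm10. Per the deposited text descriptions, each replicate's peaks were called on its own alignments with 1 control alignment that both share, the pooled list on both alignments together, and the replicated list from those 3. The rule for keeping peaks is not stated, and aligner and caller were not given in the sources used here. For each peak the authors deposited a signal value, a score whose definition is not stated, and a −log10 p and a −log10 q. A further list on mm9 was not used here. Without read counts the depth is unknown, and bases outside peaks may still carry the mark.

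Genes came from GENCODE mouse release 21 (longest gene per symbol, outermost start), and sequences from the RefSeq copy of GRCm38.p6. Covered bases are the union of peaks, at least 1 bp of overlap counted, and peaks were joined across gaps of at most 3 kb. No test was run. The members and lists were chosen with earlier results of these data known. Genes named are all 10 receptors, protein-coding genes in their windows that overlap a replicated peak, up to 3 Wnt genes per role with the highest share, and the 5 most like Fzd3. Others are said to be chosen after their values were seen, and neighbours without peaks are named for position only. Alternatives were the pooled list, each replicate alone, −log10 q of at least 2, the upper 50% by signal value, flanks of 10 and 100 kb, joining at 1 and 10 kb, and 50% of a peak inside. On 500 simulated windows the code recovered covered bases, calls and longest stretch in all 500. The simulated windows held few peaks and none crossing a window edge, so windows as dense as that of Fzd3 were not simulated. Python 3.11.15, numpy 2.4.6, pandas 2.3.3 and matplotlib 3.10.9 were used.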

Additional observations from a re-analysis of the deposited data

How the results depend on the processing

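Of 48 alternatives over 7 results, 21 stayed within the replicate spread or within 1.5 times for a count, and 27 moved. Receptors with a peak in the window went from 7 to 4 with a −log10 q of at least 2 and to 4 with 10 kb flanks, and those with a peak in the body from 3 to 1 with a −log10 q of at least 2. The Fzd3 window share of 16.1% was 19.7% in the pooled list, 16.8% to 17.5% in 1 replicate alone, 3.79% with a −log10 q of at least 2, 11.3% in the upper 50% by signal value, 27.5% with 10 kb and 10.4% with 100 kb flanks. For the other 9 receptors the share of 3.50% was, in the same order, 4.48%, 3.90% to 4.62%, 0.715%, 2.31%, 2.62% and 2.97%. The Fzd3 body share of 34.3% was 38.0% in the pooled list, 32.6% to 33.1% in 1 replicate alone, 8.35% with a −log10 q of at least 2 and 24.9% in the upper 50%. The longest Fzd3 stretch of 51122 bp was 46779 bp to 51253 bp in 1 replicate alone, 5571 bp with a −log10 q of at least 2, 34095 bp in the upper 50%, and 11822 bp and 61637 bp with joining at 1 and 10 kb. Wnt pathway genes with a peak went from 57 to 22 with a −log10 q of at least 2. No share of all protein-coding genes is given for the changed limits and flanks. The counts of receptors and Wnt pathway genes under them therefore cannot be set against a general rate. Stricter lists hold fewer peaks and wider flanks more bases by construction. The pooled list holds every replicated peak, so its shares cannot be lower. A longer joining distance cannot shorten the longest stretch. The cause of the other shifts was not tested. With 2 replicates and no read counts, differences near the replicate spread were not resolved.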
